A study of Mus musculus with 8 samples.

Results

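The genes described are 33 interferon response genes in mouse sciatic nerve, each read from the array probes that carry its name, with 1 probe per gene, the brightest in the nerve channel over all 8 arrays. They comprise 23 genes best known as targets of type I interferon and 10 best known as induced by interferon gamma, although many answer to both. Of the 33, 29 had a probe that passed the brightness filter (nerve signal well above background on 4 or more of 8 arrays) and could be tested, 19 of the 23 type I genes and 10 of the 10 gamma-induced genes, within 15341 genes tested of 34821 gene names on the array. RNA came from the sciatic nerves of male mice aged 60 days, 4 wild-type mice, described as non-transgenic controls, and 4 transgenic SOD1G93A mice, a model of amyotrophic lateral sclerosis in which a mutated form of human SOD1 is expressed. Nerve RNA was labelled with Cy3, and a reference made from neonatal heart, liver and kidney of both genotypes, pooled, was labelled with Cy5 on every array, with no dye swap. Values are log2 ratios of nerve over reference after background correction and loess, so that 0 means equal signal of both and 1 means a nerve signal higher by 1 on the log2 scale. A whole nerve holds axons, Schwann cells, connective, vascular and immune cells, and in such bulk RNA fewer cells of a type and less RNA per cell cannot be told apart.

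Interferons are secreted alarm proteins. Type I interferons act through the receptor chains Ifnar1 and Ifnar2 and the factor ISGF3, which contains Stat2 and Irf9 and binds the interferon-stimulated response element, while interferon gamma acts through Ifngr1 and Ifngr2 and the gamma-activated site. Their targets include proteins that bind viral RNA, the ubiquitin-like protein Isg15, GTPases that attack vacuoles holding pathogens, and the machinery that loads peptides on class I MHC.

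Promoter windows from RefSeq, from 250 bases before to 50 after a gene's start on build GRCm38.p6, were found for 25 of the 33 genes, giving 29 windows. Dhx58, Iigp1, Mx1, Mx2, Parp14, Rtp4, Usp18 and Zbp1 had no entry. The core of the interferon-stimulated response element, GAAA, then NN (any 2 bases), then GAAA, was looked for on both strands, where it reads TTTC, NN, TTTC, overlapping matches included. It occurred in 14 of the 25 genes (56%), beside 1079 of all 27025 genes in the table (3.99%). By window, the shares were 48.3% of the 29 and 3.44% of all 32851. Type I genes held it in 9 of 16 and gamma-induced genes in 5 of 9. The palindromic letters TTCNNNGAA of the gamma-activated site occurred in 7 of 25 genes (28%), beside 9.55% of all genes, with 4 of 16 type I and 3 of 9 gamma-induced genes. In Bst2 a match to each kind shared bases. Irf1, Ifit2, Ifi35 and Psmb8 held a gamma-activated site match and no response-element match. Another window of each of Irf1, Gbp3 and Ifit2, not printed here, held 0 matches of either kind. The 6 windows printed here were chosen because they show the arrangements found: a run of overlapping response-element matches (Isg15, Irgm1 and Gbp3), separate matches to the other strand (Ifit1 and Ifit3, whose matched letters are the same), and a gamma-activated site match alone (Irf1). Capitals mark the matches.
Isg15, chr4:156200769-156201068, - strand: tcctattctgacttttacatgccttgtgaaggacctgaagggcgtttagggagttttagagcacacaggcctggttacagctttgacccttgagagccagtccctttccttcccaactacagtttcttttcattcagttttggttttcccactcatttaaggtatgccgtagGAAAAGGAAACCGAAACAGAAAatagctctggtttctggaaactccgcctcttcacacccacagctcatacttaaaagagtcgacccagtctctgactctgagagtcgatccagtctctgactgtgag
Ifit1, chr19:34640639-34640938, + strand: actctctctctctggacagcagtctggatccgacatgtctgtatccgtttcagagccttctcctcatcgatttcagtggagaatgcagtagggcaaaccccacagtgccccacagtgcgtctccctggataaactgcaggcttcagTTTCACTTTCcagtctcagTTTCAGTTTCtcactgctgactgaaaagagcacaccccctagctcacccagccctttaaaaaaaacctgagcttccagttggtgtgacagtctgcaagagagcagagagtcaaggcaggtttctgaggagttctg
Ifit3, chr19:34583279-34583578, + strand: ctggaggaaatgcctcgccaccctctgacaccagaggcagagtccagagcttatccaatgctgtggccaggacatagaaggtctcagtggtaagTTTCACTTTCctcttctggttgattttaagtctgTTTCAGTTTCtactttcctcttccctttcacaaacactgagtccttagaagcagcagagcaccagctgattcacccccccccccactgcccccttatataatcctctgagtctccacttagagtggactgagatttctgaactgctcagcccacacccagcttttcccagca
Gbp3, chr3:142559794-142560093, + strand: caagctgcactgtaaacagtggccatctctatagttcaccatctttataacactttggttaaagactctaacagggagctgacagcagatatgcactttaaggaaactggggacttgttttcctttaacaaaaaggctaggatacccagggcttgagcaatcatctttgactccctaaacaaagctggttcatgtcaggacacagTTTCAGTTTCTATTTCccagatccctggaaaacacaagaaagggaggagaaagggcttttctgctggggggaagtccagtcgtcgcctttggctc
Irgm1, chr11:48871371-48871670, - strand: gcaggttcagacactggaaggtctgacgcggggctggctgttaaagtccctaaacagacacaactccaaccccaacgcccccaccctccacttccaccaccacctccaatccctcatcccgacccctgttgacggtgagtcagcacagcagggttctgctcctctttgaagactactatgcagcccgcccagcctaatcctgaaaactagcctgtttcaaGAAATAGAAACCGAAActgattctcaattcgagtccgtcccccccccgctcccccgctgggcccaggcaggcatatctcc
Irf1, chr11:53769764-53770063, + strand: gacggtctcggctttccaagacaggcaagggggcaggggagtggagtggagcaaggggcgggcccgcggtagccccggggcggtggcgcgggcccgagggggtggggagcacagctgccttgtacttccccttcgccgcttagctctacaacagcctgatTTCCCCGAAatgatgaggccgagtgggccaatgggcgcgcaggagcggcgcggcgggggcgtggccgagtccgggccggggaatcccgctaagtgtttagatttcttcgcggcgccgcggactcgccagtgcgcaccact

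The 3 matches of Isg15 began 78, 72 and 66 bases before the start. Those of Ifit1 began 104 and 85 bases before it, those of Ifit3 156 and 122, those of Gbp3 45 and 39, and those of Irgm1 30 and 24. The match of Irf1 began 90 bases before its start. Several of the genes are neighbours: the probes of Ifit2 (chr19:34650244-34650303), Ifit3 (chr19:34663105-34663164) and Ifit1 (chr19:34723796-34723855) lie together on build mm9, which the scanner files use, as do those of Gbp3 (chr3:142236032-142236091) and Gbp2 (chr3:142300719-142300778), and those of Psmb9 (chr17:34319174-34319233), Tap1 (chr17:34330854-34330913) and Psmb8 (chr17:34337771-34337830). The windows of Psmb9 and Tap1, on opposite strands, shared 275 bases. A match is a description of these letters and says nothing of binding, and which exon each probe lies in was not analysed here.

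No interferon response gene differed between the genotypes past the threshold (limma, Benjamini-Hochberg adjusted p under 0.05 over all 15341 genes, a threshold that 0.163% of all genes passed, 0.0913% with a lower mean in SOD1G93A). The lowest adjusted p of the 29 was 0.332, for Ifit2. At an unadjusted limma p under 0.05, 5 of the 29 had a lower mean in SOD1G93A (Ifit2, Gbp3, Usp18, Iigp1 and Gbp2; 17.2%) and 0 a higher one, beside 6.58% of all genes lower and 4.83% higher. That count rested on single arrays: it was 0 lower and 0 higher without SOD1G93A array 4, 1 and 0 without SOD1G93A array 2, 3 and 2 without SOD1G93A array 1, 3 and 1 without wild-type array 1, 3 and 0 without wild-type array 2. It was 1 lower with the Cy3 channel alone and 2 lower with median centring. The mean difference was below 0 in 25 of 29 (86.2%), beside 54.7% of all genes. Its median was -0.18 on the log2 scale, beside -0.02 for all genes. Groups that did not overlap, with every SOD1G93A value lower, occurred in 1 of the 29 (Ifit2; 3.45%), beside 4.33% of all genes, and with every value higher in 0 of 29, beside 3.66%. The 95% interval of the limma fit lay within 1 of 0 on the log2 scale in 26 of the 29. Wild-type array 1 carried much of the median. Without it the median was -0.07, with 20 of 29 below 0.

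**Figure D1:**
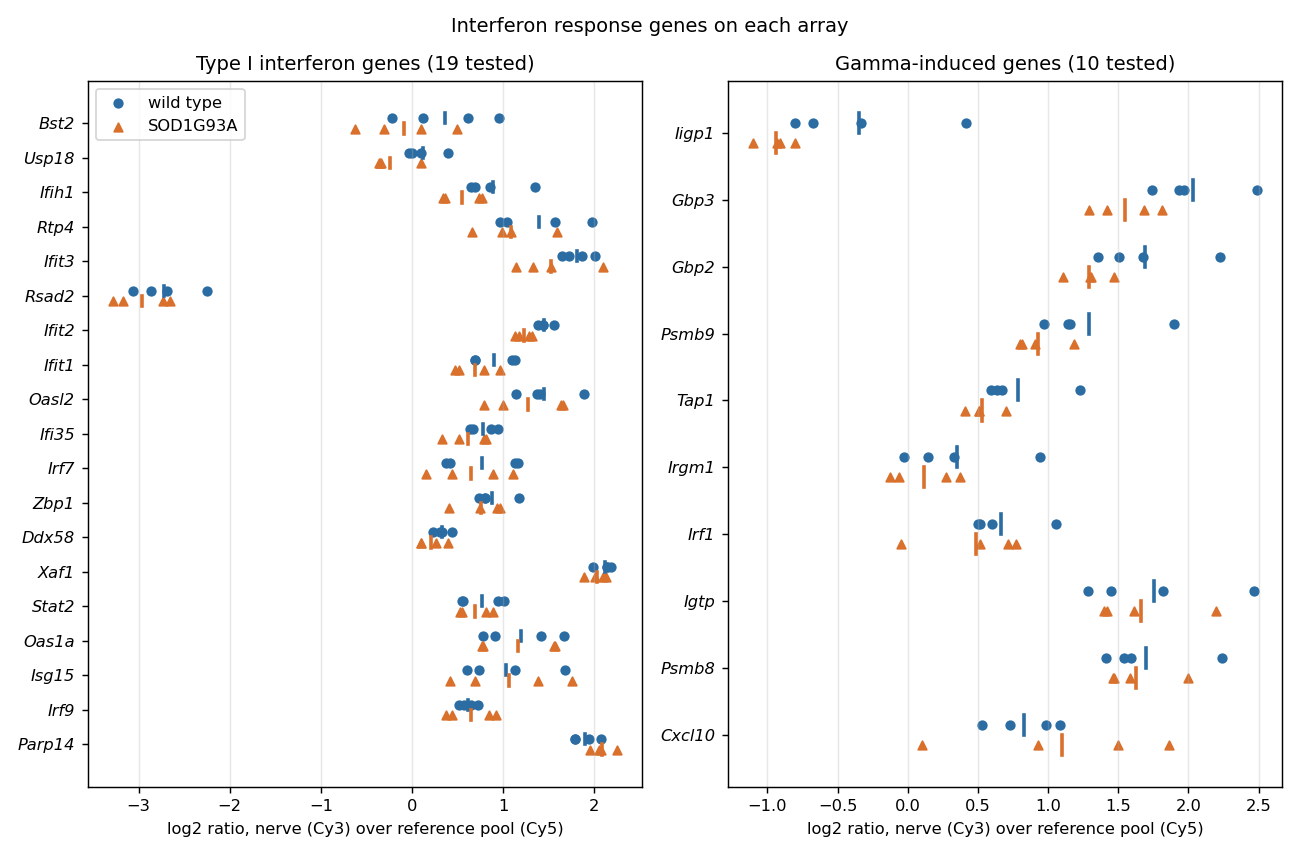
Each point is the log2 ratio of nerve over reference pool on 1 array (circles, 4 wild-type; triangles, 4 SOD1G93A; vertical ticks, group means), for the 19 tested type I genes on the left and the 10 gamma-induced genes on the right. The groups overlap for every gene but Ifit2, and 1 wild-type circle stands to the right in most gamma-induced genes.

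The spread within a genotype was wide for these genes. Their median within-genotype SD was 0.31 on the log2 scale, beside 0.16 for all genes, and 19 of the 29 lay above the 75th percentile of all genes. Isg15, Bst2 and Cxcl10 had the widest spreads, with SDs of 0.55, 0.50 and 0.57. Ifit2, Xaf1 and Ddx58 had narrow ones of 0.08, 0.10 and 0.12. Several genes were high on the same arrays.

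Isg15 is a ubiquitin-like protein that is secreted and also joined to other proteins. Its log2 ratio was 1.13, 1.68, 0.61 and 0.73 on wild-type arrays 1 to 4, and 1.76, 0.42, 1.38 and 0.70 on SOD1G93A arrays 1 to 4. Wild-type arrays 1 and 2 and SOD1G93A arrays 1 and 3 were high and the other 4 low, so each genotype held a pair of each kind and the groups overlapped over most of their range. In mean Cy3 spot intensity the same arrays read 2357.9, 2324.6, 1221.8 and 1243.3 for wild type and 1866.3, 1153.2, 2120.7 and 1301.8 for SOD1G93A. The genotype means differed by 0.03 ± 0.32 (SE, n = 4 and 4; limma adjusted p = 0.983). A dimmer Isg15 probe gave -0.14. Usp18, which takes Isg15 off its targets and damps the type I receptor, read 0.09, 0.40, -0.03 and 0.00 in wild type and -0.34, -0.35, 0.11 and -0.36 in SOD1G93A. SOD1G93A array 3 lay above 3 of the 4 wild-type arrays and the other SOD1G93A arrays lay below them all. The difference was -0.35 ± 0.14 (limma adjusted p = 0.373), and -0.36 without wild-type array 1. The Usp18 probe was well above background on 4 wild-type and 3 SOD1G93A arrays.

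The same arrays were high for the factor Irf7, the master regulator of the interferon alpha genes. Irf7 read 1.13, 1.16, 0.42 and 0.37 in wild type and 1.11, 0.16, 0.89 and 0.45 in SOD1G93A. Its difference was -0.12 ± 0.25 (limma adjusted p = 0.883). Oas1a, which makes the 2-5A signal that activates RNase L, read 1.67, 1.42, 0.78 and 0.91 in wild type and 1.55, 0.78, 1.57 and 0.77 in SOD1G93A, with a difference of -0.03 ± 0.26 (limma adjusted p = 0.977). Its probe's accession also matches Oas1g, so the signal may belong to either gene. A dimmer Oas1a probe gave -0.25. Oasl2, a relative of Oas1a, had 1.89, 1.40, 1.37 and 1.14 in wild type and 1.64, 0.79, 1.66 and 1.00 in SOD1G93A, again with SOD1G93A arrays 1 and 3 above 2 and 4. The difference of Oasl2 was -0.18 ± 0.23 (limma adjusted p = 0.789), and -0.03 without wild-type array 1.

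The Ifit proteins include ones that bind foreign RNA and block its translation. Ifit1, whose promoter window is printed above, read 1.10, 1.13, 0.69 and 0.69 in wild type and 0.97, 0.47, 0.80 and 0.52 in SOD1G93A, the order of high and low arrays seen for Isg15. Its mean difference was -0.21 ± 0.15 (limma adjusted p = 0.619), and -0.15 without wild-type array 1. The reference pool was above background for Ifit1 on 2 of 8 arrays. Ifit3 read 1.73, 2.01, 1.64 and 1.87 in wild type and 2.09, 1.14, 1.52 and 1.33 in SOD1G93A. SOD1G93A array 1 was the highest of all 8 and the other 3 lay below every wild-type array, for a difference of -0.29 ± 0.19 (limma adjusted p = 0.585). Without wild-type array 1 the Ifit3 difference was -0.32. Ifit2 stood apart from its neighbours in having little spread. It read 1.56, 1.39, 1.44 and 1.44 in wild type and 1.29, 1.32, 1.17 and 1.13 in SOD1G93A. Every SOD1G93A value lay below every wild-type value, by a mean of -0.23 ± 0.08 (95% interval -0.40 to -0.05; 0.856-fold; limma unadjusted p = 0.0193, adjusted p = 0.332). Over the alternative settings this difference lay between -0.32 and -0.10, with a lowest limma adjusted p of 0.103. Without wild-type array 1 the Ifit2 difference was -0.19.

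Among the other antiviral effectors, Bst2 (tetherin, which holds budding viruses at the cell surface) read 0.95, 0.62, -0.22 and 0.12 in wild type and 0.09, -0.30, 0.49 and -0.62 in SOD1G93A. Wild-type arrays 1 and 2 and SOD1G93A array 3 were the highest, and the difference was -0.45 ± 0.29 (limma adjusted p = 0.586), and -0.26 without wild-type array 1. Rtp4, a chaperone of receptors that is also strongly interferon-induced, read 1.98, 1.58, 1.05 and 0.97 in wild type and 0.99, 1.09, 1.59 and 0.66 in SOD1G93A, the same 3 arrays standing high. Its difference was -0.31 ± 0.25 (limma adjusted p = 0.672), and -0.11 without wild-type array 1. Rsad2 (viperin, a radical enzyme that makes a chain-terminating nucleotide) was the one tested type I gene far below the reference, at -2.25 to -3.07 in wild type and -2.66 to -3.28 in SOD1G93A. Its nerve signal was above background on 3 wild-type and 3 SOD1G93A arrays. The difference was -0.24 ± 0.20 (limma adjusted p = 0.669), and -0.09 without wild-type array 1. Xaf1, a pro-apoptotic protein, and Parp14, an ADP-ribosyltransferase, stood above the pool by 4.21-fold and 3.98-fold and varied little. Xaf1 lay at 1.99 to 2.19 in wild type and 1.89 to 2.13 in SOD1G93A (difference -0.08 ± 0.08; limma adjusted p = 0.728). Parp14 lay at 1.79 to 2.08 and 1.96 to 2.25, and at 0.18 ± 0.10 had the highest difference of the type I genes (limma adjusted p = 0.517). Ifi35, an interferon-induced leucine zipper protein, differed by -0.16 ± 0.13 and Zbp1, a sensor of Z-form nucleic acids that can start necroptosis, by -0.12 ± 0.15, with overlapping groups. Without wild-type array 1 these were -0.11 and -0.02. Of the 14 genes in the Ifit and antiviral group 11 were tested, 10 with a difference below 0.

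The cytosolic sensors Ddx58 (RIG-I) and Ifih1 (MDA5) detect viral RNA, and Dhx58 (LGP2) tunes them. Ddx58 read 0.23 to 0.44 in wild type and 0.10 to 0.39 in SOD1G93A, with a difference of -0.11 ± 0.09. Ifih1 read 1.35, 0.69, 0.86 and 0.65 in wild type and 0.34, 0.74, 0.77 and 0.37 in SOD1G93A. SOD1G93A arrays 1 and 4 were the lowest, and the difference was -0.33 ± 0.17 (limma adjusted p = 0.507), and -0.18 without wild-type array 1. In ISGF3, Stat2 differed by -0.07 ± 0.14 and Irf9 by 0.03 ± 0.13. Irf9 was high on SOD1G93A arrays 1 (0.85) and 3 (0.92) and low on 2 (0.44) and 4 (0.38), around a wild-type range of 0.52 to 0.73.

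The 4 genes not tested were dim. Dhx58 passed background on 3 wild-type arrays of 4 and on 0 SOD1G93A arrays. Its mean wild-type signal was at least 1.14-fold higher than a floor. The floor was the lowest signal well above background on each SOD1G93A array, or the probe's own signal where that was higher. The wild-type mean includes the array that did not pass background, and the bound carries no measure of spread. Ifi44 and Mx1 were each above background on 1 wild-type and 0 SOD1G93A arrays, and Mx2 on 1 wild-type and 2 SOD1G93A arrays. The same bound was 1.00-fold for Ifi44, and Mx1 gave no bound. Mx1 and Mx2 are GTPases that trap viral nucleocapsids.

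The gamma-induced GTPases all had a mean difference below 0 (5 of 5, median -0.40, 0 called). Those at an unadjusted limma p under 0.05 were 3 of the 5, beside 6.58% of all genes. Of these, Gbp2 lay just inside that threshold and Iigp1 was dim on some arrays. Guanylate-binding proteins coat the vacuoles of pathogens. Gbp3 read 2.49, 1.93, 1.74 and 1.97 in wild type and 1.69, 1.42, 1.81 and 1.29 in SOD1G93A, where array 3 overlapped the lowest wild-type array. It differed by -0.48 ± 0.17 (limma adjusted p = 0.342), and by -0.33 without wild-type array 1. Gbp2 had 2.23, 1.67, 1.51 and 1.36 in wild type and 1.11, 1.31, 1.47 and 1.30 in SOD1G93A. Wild-type array 1 was the highest and SOD1G93A array 1 the lowest of all 8. The difference of -0.40 ± 0.18 (limma adjusted p = 0.438) was -0.22 without wild-type array 1. Iigp1, an immunity-related GTPase, read 0.41, -0.33, -0.80 and -0.67 in wild type and -0.93, -0.91, -0.80 and -1.10 in SOD1G93A. Only 2 of the 4 SOD1G93A arrays measured it above background, so its difference rests in part on background. The difference was -0.59 ± 0.23 (limma adjusted p = 0.384), -0.33 without wild-type array 1 and -1.14 with Agilent's processed signals or the series table.

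Irgm1 regulates the other immunity-related GTPases. It read 0.94, 0.33, -0.02 and 0.15 in wild type and 0.27, -0.06, 0.37 and -0.13 in SOD1G93A, for a difference of -0.23 ± 0.21 (limma adjusted p = 0.689) that was -0.04 without wild-type array 1. A dimmer probe of the gene gave -0.31. Igtp (Irgm3), another regulatory member, had 2.47, 1.82, 1.45 and 1.29 in wild type and 1.40, 1.61, 2.20 and 1.42 in SOD1G93A. Wild-type array 1 and SOD1G93A array 3 stood above the rest, and the difference of -0.10 ± 0.27 (limma adjusted p = 0.909) turned to 0.14 without wild-type array 1.

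The antigen-processing genes Psmb8 and Psmb9, catalytic subunits of the immunoproteasome, and Tap1, a chain of the peptide transporter, shared their highest arrays. Psmb8 read 2.24, 1.59, 1.54 and 1.41 in wild type and 1.47, 1.58, 2.00 and 1.46 in SOD1G93A (difference -0.07 ± 0.19; limma adjusted p = 0.912). Psmb9 read 1.90, 0.97, 1.14 and 1.16 in wild type and 0.81, 0.91, 1.18 and 0.80 in SOD1G93A (difference -0.37 ± 0.19; limma adjusted p = 0.509). Tap1 read 1.22, 0.67, 0.64 and 0.59 in wild type and 0.41, 0.51, 0.70 and 0.51 in SOD1G93A (difference -0.25 ± 0.14; limma adjusted p = 0.537). In all 3 genes wild-type array 1 was the highest of the 8 and SOD1G93A array 3 the highest of its genotype. Without wild-type array 1 the differences were 0.11 for Psmb8, -0.16 for Psmb9 and -0.11 for Tap1.

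Irf1, a factor whose printed window carries a gamma-activated site match alone, read 1.06, 0.60, 0.52 and 0.50 in wild type and -0.05, 0.72, 0.77 and 0.51 in SOD1G93A. SOD1G93A array 1 lay far below the other 7, and the difference was -0.18 ± 0.20 (limma adjusted p = 0.750), -0.05 without wild-type array 1 and 0.00 (0.00128) without SOD1G93A array 1. Cxcl10, a chemokine that draws T cells, ran the other way. It read 0.53, 0.73, 1.09 and 0.98 in wild type and 0.10, 1.86, 0.93 and 1.50 in SOD1G93A, so that SOD1G93A held both the lowest and the 2 highest arrays. Its difference was 0.27 ± 0.33 (limma adjusted p = 0.785), between 0.01 without SOD1G93A array 2 and 0.60 without SOD1G93A array 1. SOD1G93A arrays 2 and 4, where Isg15 was low, were those with most Cxcl10 signal. The Cxcl10 probe was well above background on 4 wild-type and 3 SOD1G93A arrays. Its lowest Cy3 intensity, 134.2, was on SOD1G93A array 1.

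**Figure D2:**
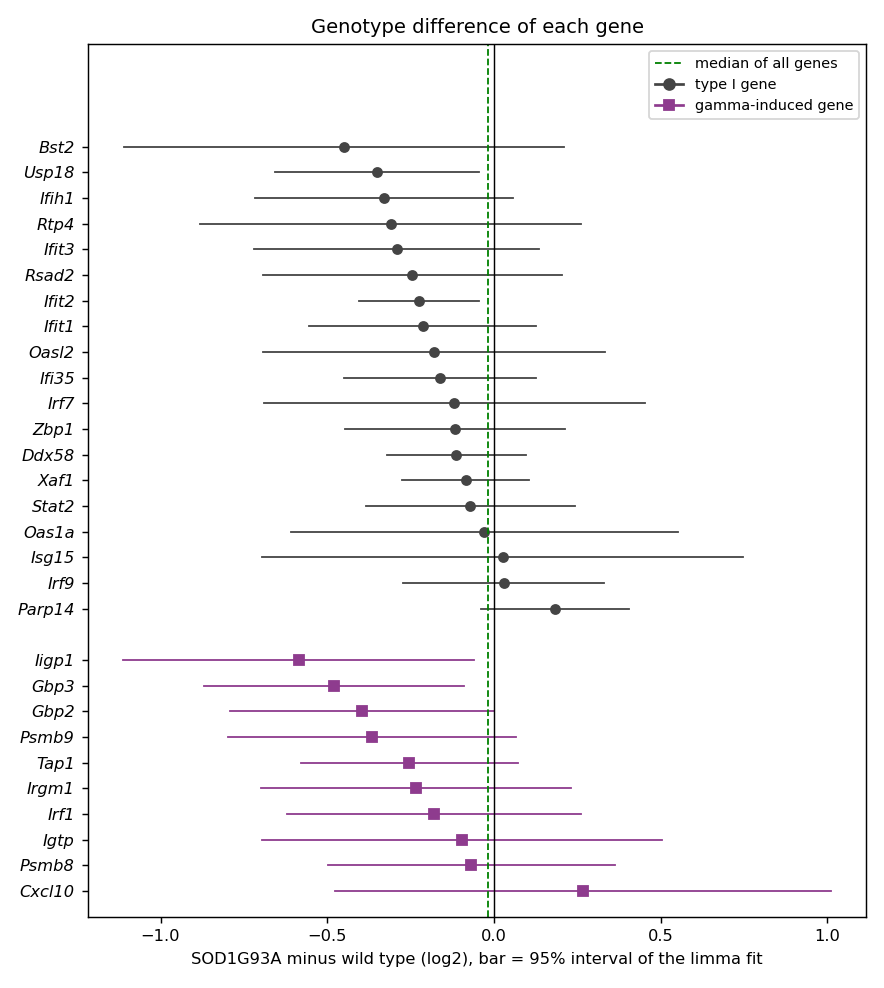
Points are the SOD1G93A minus wild-type difference of each of the 29 tested genes on the log2 scale and bars the 95% interval of the limma fit (circles, type I; squares, gamma-induced); the dashed line is the median of all genes, -0.02. Most points lie left of 0 and all bars but 5 cross it.

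Set side by side, the 19 type I genes had a median difference of -0.16 (16 below 0) and the 10 gamma-induced genes one of -0.24 (9 below 0). Without wild-type array 1 the medians were -0.07 and -0.08. The sets differed more in their order of arrays. Averaged after centring each gene on its mean, type I genes stood at 0.33, 0.18, -0.12 and -0.07 on wild-type arrays 1 to 4 and at 0.08, -0.27, 0.14 and -0.28 on SOD1G93A arrays 1 to 4. Gamma-induced genes stood at 0.59, 0.04, -0.08 and -0.08, and at -0.33, -0.06, 0.11 and -0.20. SOD1G93A array 1 thus lay above the mean for type I genes on average and had the lowest average of all arrays for gamma-induced genes. By gene the type I set was split there. That array was the highest of its genotype for 5 of the 19 and the lowest for 3. Of the 10 gamma-induced genes, 5 were lowest of their genotype on SOD1G93A array 1 and 5 on array 4. The gamma-induced average on array 1 includes Cxcl10, whose Cy3 signal was dimmest there, and was not computed without that gene. Group means of these array values were 0.08 ± 0.21 and -0.08 ± 0.22 (SD, n = 4 each) for type I and 0.12 ± 0.32 and -0.12 ± 0.19 for gamma-induced genes. The genotype difference, -0.16 for type I and -0.24 for gamma-induced genes, was smaller in size than the SD of either genotype for type I genes. For gamma-induced genes it was smaller than the wild-type SD and larger than the SOD1G93A SD. Agilent's own processed signals gave the same picture for SOD1G93A array 1, at 0.23 for type I and -0.36 for gamma-induced genes.

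**Figure D3:**
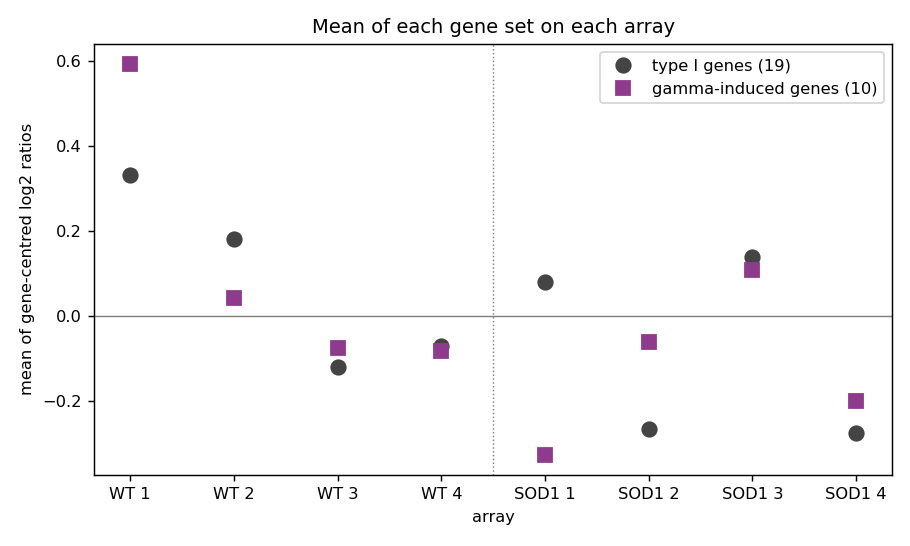
Each point is the mean of the gene-centred log2 ratios of a set on 1 array (circles, 19 type I genes; squares, 10 gamma-induced genes; 0 is each gene's mean over the 8 arrays). Wild-type array 1 is the highest for both sets, and the sets part most on SOD1G93A array 1, at 0.08 and -0.33.

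Counted by gene, wild-type array 1 was the highest of its genotype for 22 of the 29 (75.9%), beside 31.3% of all genes complete on the arrays. SOD1G93A array 3 was the highest of its genotype for 20 of 29 (69%), beside 19.4%. Among gamma-induced genes these counts were 9 of 10 and 9 of 10, the exception being Cxcl10 on each. Type I genes peaked on wild-type array 1 (13 of 19) or 2 (6 of 19), and on SOD1G93A array 3 (11 of 19) or 1 (5 of 19). Members measured on the same RNA are not independent, so these counts are a description of 8 arrays.

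**Figure D4:**
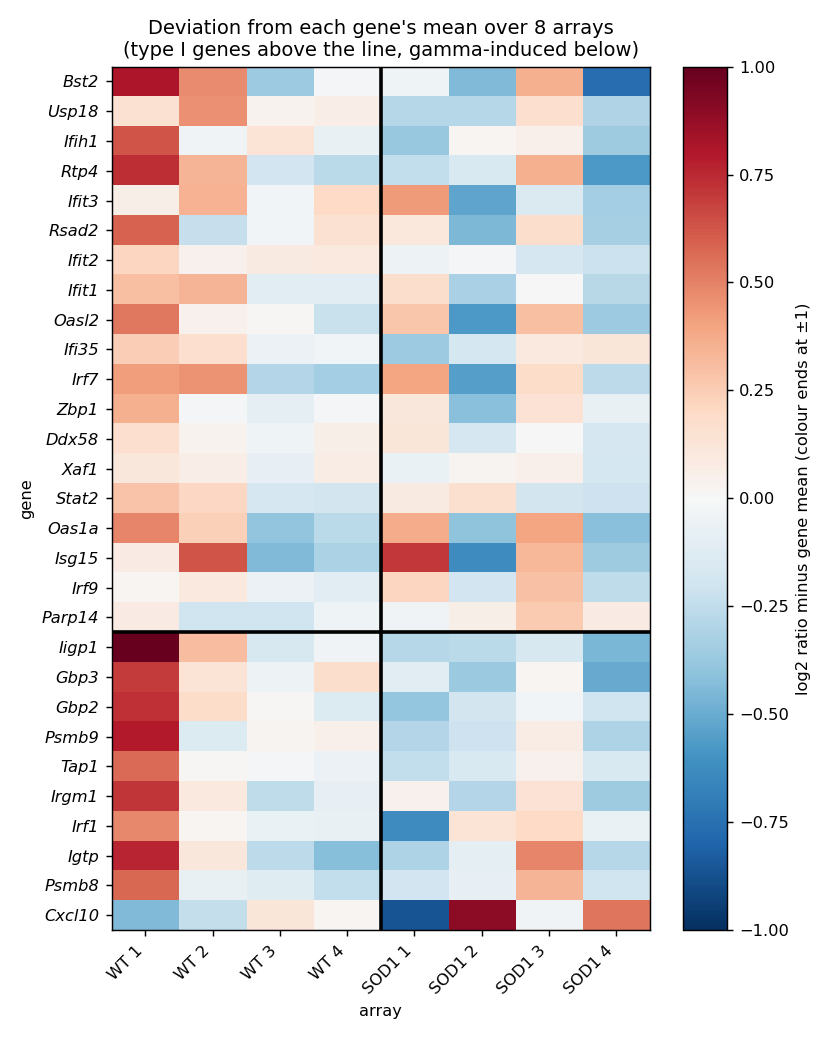
Colour shows the log2 ratio of each gene on each array minus that gene's mean over the 8 arrays (red above, blue below; colour ends at 1 and -1), with type I genes above the horizontal line and gamma-induced genes below it. Isg15, Irf7 and Oas1a lie above their means on WT 1, WT 2, SOD1 1 and SOD1 3, and the gamma-induced genes other than Cxcl10 are red on WT 1.

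Markers of other cell types also stood at different levels on these arrays. Skeletal muscle markers (6 of 8 tested, 6 of 6 lower in mean and 0 called) stood at 3.02 and 2.19 on wild-type arrays 1 and 2 and between -1.09 and -0.60 on the other 6, with differences from -2.60 (Tnnc2) to -1.43 (Ckm). Adipocyte markers (7 of 8 tested) stood at 1.29 and 0.99 on the same arrays and at -1.57 on SOD1G93A array 4, with differences from -1.76 (Pck1) to -0.12 (Retn). Pericyte and smooth muscle markers (8 of 8 tested) stood at 1.09 and 0.86 there and between -0.67 and 0.02 elsewhere, Cnn1 differing by -1.90 and Pdgfrb by 0.08. Endothelial markers lay between 0.04 and 0.42 in wild type and between -0.48 and -0.004 in SOD1G93A (11 of 12 lower, median -0.47, from Robo4 at -0.75 to Kdr at 0.08). Macrophage markers ran the other way, at -0.48 to -0.04 in wild type and -0.38, 0.32, 0.40 and 0.61 on SOD1G93A arrays 1 to 4 (12 of 15 tested higher, median 0.56, from Ptprc at -0.35 to Trem2 at 1.26, 0 called).

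Neutrophil and monocyte markers (5 of 7 tested, 5 of 5 lower) stood highest on wild-type array 1, at 0.60, and lowest on SOD1G93A array 4, at -0.48, with Ly6c1 at -0.82 and S100a9 at -0.02. S100a8 and Retnlg were above background on 0 arrays. Of the T, NK and B cell markers 4 of 15 were tested, from Cd3e at -0.20 to Cd4 at 0.17, while Cd3d, Cd3g, Cd8a, Ms4a1, Ncr1, Klrb1c and Gzmb were above background on 0 arrays. Plasmacytoid dendritic cell markers (4 of 6 tested) ranged from -0.14 (Tcf4) to 0.09 (Cox6a2), and Schwann cell markers (10 of 10 tested, 9 higher) from -0.46 (Egr2) to 0.30 (Erbb3). The part of these cell markers in the interferon values was not tested. The first principal component of all genes (36.4% of variance) set wild-type array 1 (-33.7) and SOD1G93A array 1 (30.3) apart from the other 6 (-14.7 to 10.9), and those arrays also had the highest and lowest median Cy3 intensity over tested probes, 877.6 and 435.9, beside 626.8 to 723.4. Over the 8 arrays 35.5% to 41.7% of spots were well above background in Cy3, and 0 were saturated. All 8 arrays lay on 1 slide, where the position row matched the genotype, so row and genotype cannot be told apart. Sod1 itself read 0.13 ± 0.20 in wild type and -0.04 ± 0.09 in SOD1G93A (SD, n = 4 each; difference -0.17 ± 0.11, limma adjusted p = 0.593). Its probe carries the name of the mouse gene, and whether it also reads the human transgene was not examined. On the 6 arrays numbered 2 to 4, 23 of 29 interferon response genes had a difference below 0, with a median of -0.11, 0 were called, and Igtp, Psmb8 and Irf1 stood at 0.23, 0.17 and 0.13.

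No interferon ligand was tested. Probes for Ifnb1, Ifna1, Ifna2, Ifna4, Ifne, Ifnk and Ifng were well above background on 0 of 8 arrays and that for Ifnl3 on 1. Of the receptors, 5 of 7 listed names were tested and 0 called. Ifngr1, the ligand-binding chain for interferon gamma, read 0.43, 0.33, 0.26 and 0.38 in wild type and 0.19, 0.14, 0.16 and 0.11 in SOD1G93A. Its groups did not overlap, which with SOD1G93A lower held for 4.33% of all genes, and each varied little. The Ifngr1 difference was -0.20 ± 0.07 (limma unadjusted p = 0.0212, adjusted p = 0.344). The signalling chain Ifngr2 differed by -0.05 ± 0.07. For type I interferon, Ifnar1 differed by 0.02 ± 0.10 and Ifnar2 by -0.18 ± 0.18, and Il10rb, shared with interferon lambda, by -0.13 ± 0.11. Ifnlr1 was above background on 2 arrays and was not tested.

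Of 120 further pathway names, receptors included, 85 were tested and 0 were called. The mean difference was below 0 in 68 (80%), beside 54.7% of all genes, with a median of -0.12, beside -0.02. Fits without wild-type array 1 were not examined for these genes. Groups did not overlap, with SOD1G93A lower, in 6 of the 85 (7.06%), beside 4.33% of all genes. With SOD1G93A higher this held for 4 of the 85, beside 3.66%. Of those named here, Ifngr1, Irf3, Eif2ak2, Sp140 and Gbp5 were lower and Stat3, Tlr7 and Znfx1 higher. Kinases, STATs and regulators were mixed, 5 of 12 below 0. The smallest p-values there were those of Stat3 (0.36 ± 0.10, limma adjusted p = 0.243) and Socs1 (0.30 ± 0.10), a feedback inhibitor of Jak kinases, and on the lower side those of Irf3 (-0.35 ± 0.11, limma adjusted p = 0.264), the factor that starts interferon beta transcription, and Irf2 (-0.11 ± 0.08). Among sensing adaptors 6 of 10 were below 0. Traf3 (0.27 ± 0.10) and the RNA receptor Tlr7 (0.20 ± 0.08) led the higher side, while Tbk1, the kinase of Irf3, stood at -0.38 ± 0.17 and Trim25, which ubiquitinates RIG-I, at -0.17 ± 0.11.

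Other type I targets lay below 0 in 34 of 38 (89.5%), beside 54.7% of all genes. Eif2ak2 (PKR, a kinase that halts translation on double-stranded RNA) read -0.46, -0.44, -0.39 and -0.53 in wild type and -0.87, -0.62, -0.85 and -0.74 in SOD1G93A. Its groups did not overlap, with a difference of -0.31 ± 0.08 (limma adjusted p = 0.198). Sp140, a nuclear body protein, differed by -0.25 ± 0.08, and Znfx1 and Oas2 led the higher side at 0.25 ± 0.08 and 0.18 ± 0.30. Other gamma targets lay below 0 in 19 of 20 (95%), a count that was not examined without wild-type array 1. Gbp5, which promotes inflammasome assembly, read 3.17, 2.07, 2.19 and 2.11 in wild type and 1.70, 1.78, 1.82 and 1.42 in SOD1G93A, with a difference of -0.71 ± 0.23 (limma adjusted p = 0.298) and no overlap. Gbp9 differed by -0.93 ± 0.32 (limma adjusted p = 0.314) with overlapping groups. Psmb10, the remaining catalytic subunit of the immunoproteasome, was the single gamma target above 0, at 0.05 ± 0.10.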

How the data were processed

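Scanner files of 8 Agilent 2-colour arrays, 4 per genotype, hold spot intensity for Cy3 (nerve) and Cy5 (reference pool) as the authors deposited them, written by Agilent Feature Extraction 11.5.1.1 per the file headers; limma (no role stated) and Feature Extraction 11.0.1.1 are listed in the submitters' processing notes. The table that the authors deposited for the series gives log10 ratios (Cy5 over Cy3). These were identical to the log ratio in the scanner files (largest difference 0), 30.7% being exactly 0. Other deposited columns (flags, probe names and positions) carry no scale. Mean intensity was corrected by normexp with an offset of 50 against the median local background and normalized by loess within arrays, control spots having no weight. Spots flagged as outliers were left out after normalization, and were kept in the brightness filter and the choice of probe. Replicate spots were averaged. A Cy3 signal well above background on 4 arrays or more was required, which 19836 of the 55681 probes met, and the brightest of these per gene name was used. Log2 ratios were compared with lmFit and eBayes of limma 3.58.1 (R 4.3.3, data.table release 1.17.8), 2-sided, with Benjamini-Hochberg adjustment over 15341 genes. Errors beside a difference are limma's standard errors.

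The 33 genes, the gene lists and the motifs were chosen with earlier results of these data known. Named are all 33 genes, Sod1, every measured ligand and receptor, the 2 genes of smallest p in each direction of each pathway list, and the genes at the lowest and highest difference of each marker list; the markers at background were named after their values were seen. Items withheld from this text are not reported here. On simulated data with the spread of 15325 genes and 200 changed genes in each of 10 runs of SOD1G93A against wild type, the fit recovered 39.9% of log2 changes of 0.5, 86.4% of changes of 1 and 97.7% of changes of 2, with 7.2 false calls per run. That spread is the one of all genes, with a median within-genotype SD of 0.16, beside 0.31 for the interferon response genes. Recovery at this wider spread, or with another number of changed genes, was not simulated. These rates therefore do not give the recovery for interferon response genes. The number of arrays limits the precision.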

Additional observations from a re-analysis of the deposited data

Results flagged for a closer look

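Among 62 groups of 4 arrays examined (29 interferon response genes, the means of the 2 sets, in each genotype), 3 held an array far from the others by Dixon's criterion, and chance gives about 1 in 20. Tap1 read 1.22 on wild-type array 1, beside 0.59 to 0.67 on the other wild-type arrays. Zbp1 read 1.18 on the same array, beside 0.73 to 0.81. Usp18 read 0.11 on SOD1G93A array 3, beside -0.36 to -0.34 on the other SOD1G93A arrays.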

How the results depend on the processing

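The number of called interferon response genes was 0 under all 21 alternatives, the number with a difference below 0 ran from 20 to 27 where 29 were tested (28 of 33 with no filter on dim probes, 22 of 25 with probes above background on all 8 arrays), and the medians ran from -0.27 to -0.07 for all of them, -0.25 to -0.07 for type I genes and -0.33 to -0.08 for gamma-induced genes. At an unadjusted limma p under 0.05 and lower, the count ran from 0 (without SOD1G93A array 4) to 7 (no filter on dim probes). Over all genes, 25 were called, against 6 with Agilent's processed signals, 6 with the series table's values, 1 with median centring, 16 with no filter on dim probes, 430 with array weights, 233 on the 6 arrays numbered 2 to 4, and 3 to 179 when 1 array was left out. The replicate numbers did not pair the arrays (correlations of deviations -0.16, 0.04, -0.11 and 0.10), and with replicate as a block 1 gene was called. The cause of these moves was not tested.

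Of 605 differences of single genes under alternatives, 566 kept their direction and side of the threshold and 39 changed sign, none of them called. Xaf1 stood at 0.03 (0.0315) with Agilent's signals and with the series table. With the Cy3 channel alone Stat2 stood at 0.0415, Irf9 at -0.0419, Oas1a at 0.0219 and Psmb8 at 0.0405. Array weights gave -0.0729 for Isg15, 0.0551 for Irf1, -0.000334 for Irf9, 0.00514 for Oas1a, 0.141 for Igtp and 0.0925 for Psmb8. The 6 arrays numbered 2 to 4 gave -0.174 for Isg15, 0.131 for Irf1, -0.0261 for Irf9, 0.000703 for Oas1a, 0.226 for Igtp and 0.166 for Psmb8. Isg15 stood at -0.00857 with median centring and at -0.0548 as the mean of its kept probes. With 1 array left out, differences ran from -0.204 to 0.241 for Isg15, -0.0625 to 0.119 for Irf9, -0.165 to 0.13 for Oas1a, -0.272 to 0.0459 for Irf7, -0.274 to 0.00128 for Irf1, -0.276 to 0.141 for Igtp, -0.191 to 0.114 for Psmb8, -0.144 to 0.0119 for Stat2 and -0.183 to 0.00384 for Zbp1. Probes near background (Usp18, Rsad2, Iigp1 and Cxcl10, each dim on 1 or 2 arrays) are the least certain.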
